A study of Homo sapiens with 24 samples.

Results

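Small RNA levels were compared between HEK293 cells that overexpressed lamin A, labelled LMNA, and HEK293 cells that overexpressed enhanced green fluorescent protein, labelled eGFP and called GFP here. The comparison used 6 of the 24 libraries of the series, 3 per group, and all 175946 annotated intervals (features) of the small RNA count table, which carry 99452 distinct names. HEK293 is an established human embryonic kidney cell line. The labels give its genotype as wild type in both groups and assign every small RNA library to the same batch. RNA was isolated as total RNA enriched for small species after overexpression, and the other 6 small RNA libraries of the series, from cells that overexpressed LMNB1 or LMNB2, entered the fit only to estimate the spread. The vector, its promoter and the time after overexpression are not given in the sources used here. Nothing says that replicates came from separate cultures, so p-values measure the spread between these libraries, which may be technical. In bulk RNA of this kind, fewer cells that make an RNA and less of that RNA per cell cannot be told apart.

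Lamin A is an intermediate filament protein of the nuclear lamina, the meshwork under the inner nuclear membrane that contacts chromatin. The title of the series names RNA polymerase III (Pol III), which transcribes transfer RNA, 5S ribosomal RNA, U6 small nuclear RNA, 7SL RNA and several other short structured RNAs. Small nucleolar RNAs (snoRNAs) are mostly cut from introns of host genes transcribed by RNA polymerase II; those of the C/D box class guide 2'-O-methylation, and those of the H/ACA box class guide pseudouridylation, mainly of ribosomal RNA. MicroRNAs are short regulators that pair with messages through their seed.

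MicroRNA genes are described below with values that differed between GFP libraries, and the mature forms of 8 of them are shown first, because members with the same seed are thought to recognise overlapping sets of messages. The sequences are those of RefSeq (GRCh38.p14), written 5' to 3' with the seed, bases 2 to 8, in capitals. Of 366 names of tested features that begin with MIR, 286 matched a symbol in that table. Each form shown lies whole inside a tested interval of its gene, but an interval can also hold the other arm of the hairpin, so a count does not belong to the mature form alone.
miR-10a-5p: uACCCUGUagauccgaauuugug
miR-125b-5p: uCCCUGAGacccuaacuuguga
let-7a-5p: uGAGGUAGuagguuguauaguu
miR-25-3p: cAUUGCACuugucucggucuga
miR-92a-3p: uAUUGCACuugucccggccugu
miR-93-5p: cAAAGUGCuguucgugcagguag
miR-191-5p: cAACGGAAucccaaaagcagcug
miR-9-5p: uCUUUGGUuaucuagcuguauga
Of these, miR-25-3p and miR-92a-3p share a seed.

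Total counts over features were 135748281 to 184603455 per GFP library and 151919382 to 195074742 per LMNA library. Overlapping features can hold the same reads. Ribosomal RNA features held 5.13%, 7.37% and 10.7% of the counts in GFP replicates 1 to 3, and 9.94%, 8.76% and 7.96% in LMNA replicates 1 to 3. Transfer RNA features held 0.825%, 0.902% and 2.01% in GFP and 1.46%, 1.27% and 1.29% in LMNA. GFP replicate 3 was the highest of the 6 libraries for 73.0% of tested microRNA features. Replicates spread more in GFP than in LMNA: the median standard deviation of log2 CPM (counts scaled to a common library size) was 0.348 against 0.266 over all tested features and 0.573 against 0.195 over nuclear tRNA features. The 10 microRNA markers listed for HEK293 cells were all tested, with summed counts of 11649 to 74620 in GFP and 23293 to 31058 in LMNA. None of the 5 blood, 7 muscle, 3 neural, 8 pluripotency, 2 fibroblast markers or the liver marker passed the filter on low counts. The endothelial marker MIR126 and the pancreatic marker MIR375 did, with 82 to 780 and 43 to 159 counts in GFP and 177 to 213 and 42 to 65 in LMNA; their part in the results was not tested.

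GFP replicate 3 and LMNA replicate 3 stood apart together, although the labels give them the same batch as the rest. In 181 tested features at 81 separate loci (0.534% of all tested), both libraries lay more than 2-fold above each of the other 10 small RNA libraries of the series, whereas any other of the 66 pairs of libraries did so for at most 1 feature. Another 18 features at 11 loci lay more than 2-fold below all the others in this pair, against at most 4 in any other pair. Of the 181 features, 147 were lncRNA intervals and 20 were nuclear tRNA genes, of which 14 were alanine tRNA genes. The gene tRNA-Ile-TAT-1-1 (chr19:39412143-39412285) had 0.627, 0.375 and 55.4 CPM in GFP replicates 1 to 3 and 0.94, 0.787 and 28.9 CPM in LMNA replicates 1 to 3. Its level in the 6 LMNB1 and LMNB2 libraries was 0.59 to 0.859 CPM, so only the pair numbered 3 was high. A U1 copy at chr4:113420298-113420511, also picked with its values known, went the other way, with 8.84, 14.2 and 0.237 CPM in GFP and 14.2, 14.7 and 0.31 CPM in LMNA. The cause was not tested. Values are from the fit with all libraries unless stated, and those without the pair numbered 3, an alternative added after these libraries were seen, are given beside many of them.

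**Figure D1:**
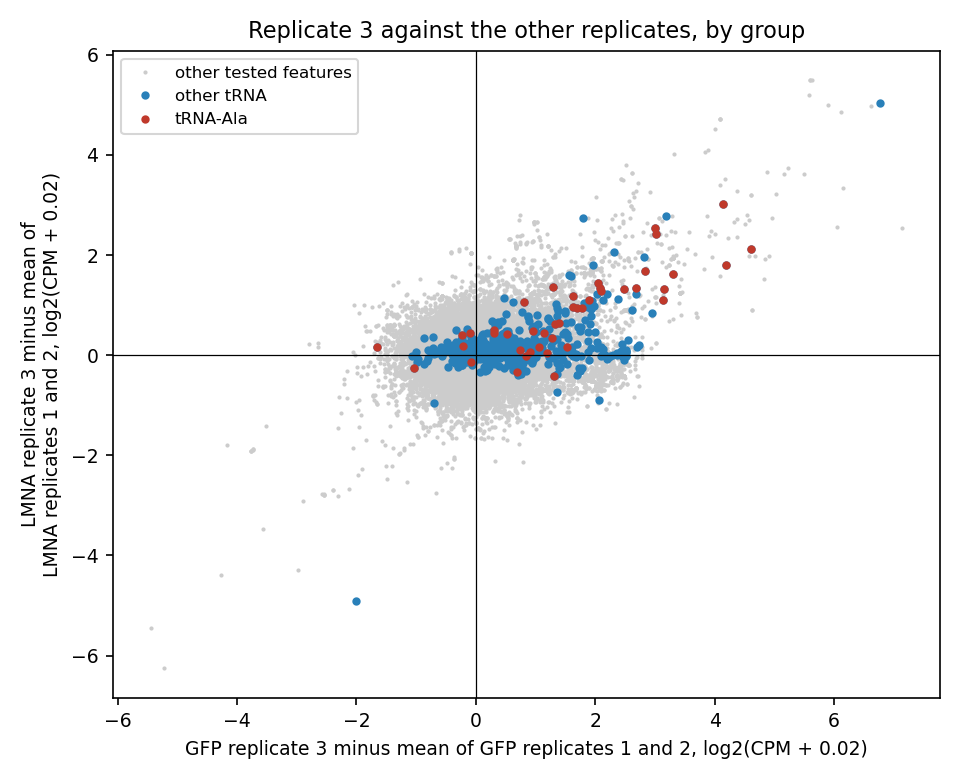
Each point is 1 of the 33893 tested features. The x axis gives GFP replicate 3 minus the mean of GFP replicates 1 and 2, and the y axis the same for LMNA, both as log2(CPM + 0.02). Alanine tRNA genes are in red and other tRNA genes in blue. Points far along the diagonal were high or low in both libraries numbered 3, such as tRNA-Ile-TAT-1-1 at the upper right.

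The overexpressed gene could not be checked directly in these data. LMNA (chr1:156082573-156140081) encodes lamins A and C, and 6 features overlap it, of which 1 was tested. That feature, lnc-MEX3A-1, had 0.0859, 0.0367 and 0.0169 CPM in GFP and 0.0249, 0.0207 and 0.0702 CPM in LMNA. The groups overlapped fully, with a log2 fold change of −0.09 ± 0.49 (SE). Counts of non-coding intervals do not measure the coding transcript, so this value says nothing about the labels.

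No feature was called different between the LMNA and GFP libraries at an adjusted p under 0.05 in the quasi-likelihood test of edgeR after Benjamini-Hochberg adjustment (0 of 33893, 0%; the lowest adjusted p was 0.326). At an unadjusted p under 0.05 there were 1850 features (5.46%), of which 959 were higher in LMNA (2.83%) and 891 lower (2.63%). The 3 LMNA libraries all lay above the 3 GFP libraries in 1411 features (4.16%) and all below in 1810 (5.34%). The median log2 fold change over all tested features was −0.05. DESeq2's Wald test called 70 features (0.207%), all of them higher in LMNA. In the top quartile by mean CPM the median log2 fold change was −0.04, near that of all tested features, while 476 features were higher and 147 lower at an unadjusted p under 0.05. In the second quartile from the bottom the median was −0.06, with 137 higher and 263 lower. Many of these features are overlapping intervals. Over all tested features, 1268 had both an unadjusted p under 0.05 and groups that did not overlap, 650 of them higher in LMNA and 618 lower. Among the 1461 features of at least 1 CPM that were not lncRNA intervals there were 85, 81 higher and 4 lower.

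**Figure D2:**
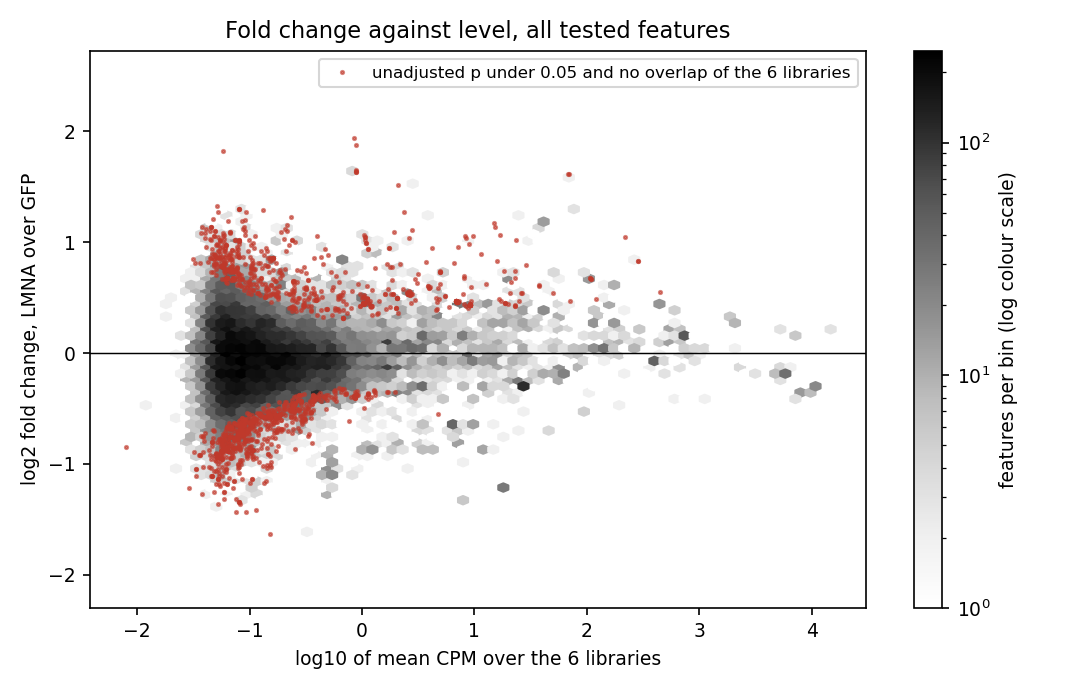
The x axis is the log10 of mean CPM over the 6 libraries and the y axis the log2 fold change of LMNA over GFP, for all 33893 tested features as grey bins. Red points have an unadjusted p under 0.05 and no overlap between the groups; above 1 CPM (0 on the x axis) nearly all of them lie above the zero line.

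The 70 features that DESeq2 called lie at 15 separate loci. A single locus, SNHG17 on chr20 from 38419649 to 38435434, held 49 of them (70%). Many overlapping lncRNA intervals are listed there, 58 of the 63 tested features over this gene. The H/ACA snoRNA SNORA71B in its introns has 2 intervals. SNHG17 is a host gene from whose introns snoRNAs are cut. Its tested interval with the highest mean CPM had 7.49, 8.05 and 7.63 CPM in GFP and 11.6, 10.1 and 9.64 CPM in LMNA. All LMNA libraries were above all GFP libraries, with a log2 fold change of 0.44 ± 0.18, an adjusted p of 0.0451 by DESeq2 and of 0.895 by the edgeR test. SNORA71B had 3.06, 3.03 and 3.11 CPM in GFP and 5.12, 4.38 and 4.52 CPM in LMNA, also without overlap (log2 fold change 0.61 ± 0.18). Without the pair numbered 3, edgeR called none of the features at this locus. SNHG17 and SNORA71B, like SNORD100, tRNA-Lys-TTT-9-1 and SCARNA4, were chosen after their values were seen.

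Of the 15 loci, 13 hold a small RNA feature among the calls. SNORD100 (chr6:132816777-132816902), a C/D box snoRNA, had 135, 135 and 154 CPM in GFP and 385, 249 and 242 CPM in LMNA. Its groups did not overlap, LMNA replicate 1 was the highest, and the log2 fold change was 1.05 ± 0.25. The DESeq2 adjusted p was 0.00283, and the adjusted p from edgeR was 0.724 with all libraries and 0.00543 without the pair numbered 3. The lysine tRNA gene tRNA-Lys-TTT-9-1 (chr6:27576042-27576164) had 13.3, 10.2 and 10.6 CPM in GFP and 19.4, 19.7 and 21.4 CPM in LMNA. The LMNA libraries were close to each other and above all GFP libraries, a log2 fold change of 0.83 ± 0.19 and the lowest DESeq2 adjusted p of the comparison, 5.73e-05. NONHSAG021691.2 (chr17:39173803-39184386), a lncRNA interval, had 2.49, 1.57 and 1.22 CPM in GFP and 3.62, 4.24 and 3.52 CPM in LMNA, with a log2 fold change of 1.11 ± 0.23. It was called in 5 of its 15 alternative fits. SCARNA4, an RNA that guides modification of spliceosomal RNA in Cajal bodies, had 4.02, 3.74 and 3.57 CPM in GFP and 6.74, 5.26 and 5.02 CPM in LMNA (log2 fold change 0.59 ± 0.19).

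**Figure D3:**
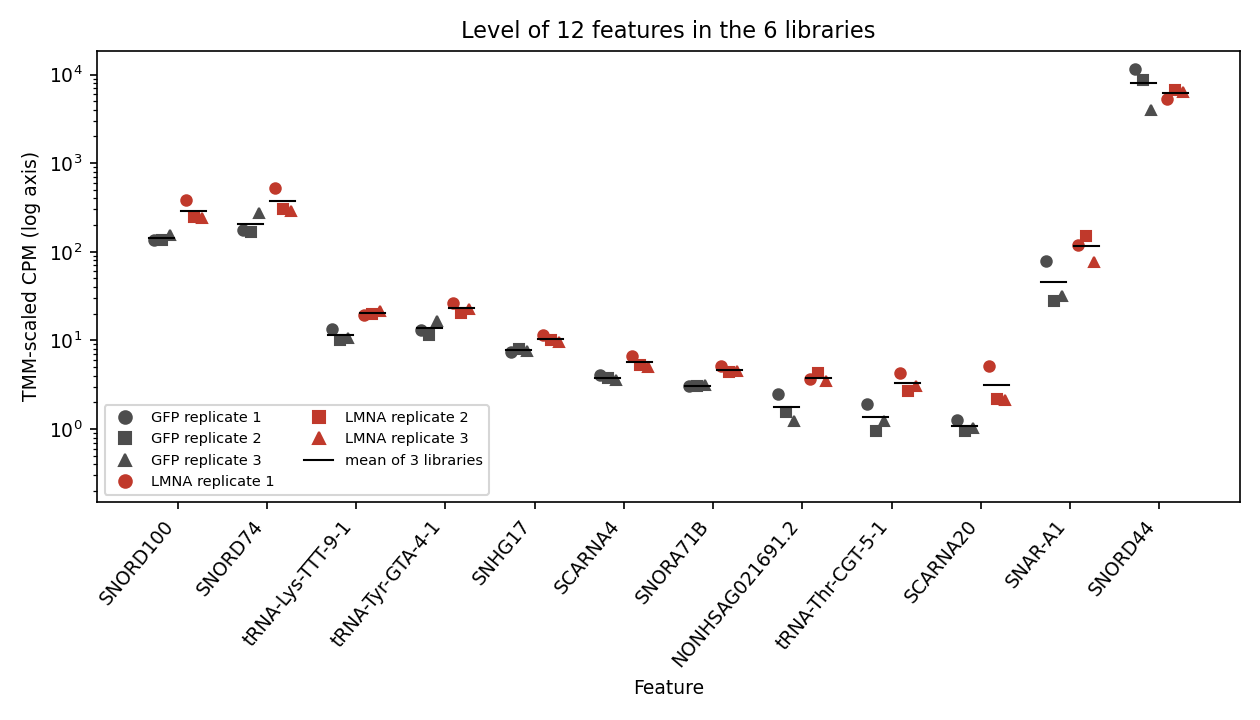
TMM-scaled CPM (log axis) of 12 features in the 3 GFP libraries (grey) and the 3 LMNA libraries (red); symbols mark the replicate number and black bars the mean of 3 libraries. Of the 12 features, 10 have groups that do not overlap. Those 10 were named by a rule that required this or chosen after their values were seen. SNAR-A1 and SNORD44 overlap.

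H/ACA box snoRNAs had the highest median among the lists of over 100 tested features. Of its tested features, 131 in all, 119 had a positive log2 fold change, and the median was 0.41. At an unadjusted p under 0.05, 42 were higher (32.1%, against 2.83% of all tested) and 0 lower. In 32 of the 131 (24.4%, against 4.16% of all tested) all LMNA libraries were above all GFP libraries. In 0 they were all below, against 5.34% of all tested. The median level of the class, relative to the GFP mean, was 0.19, −0.28 and 0.13 log2 units in GFP replicates 1 to 3 and 0.67, 0.29 and 0.34 in LMNA. LMNA replicate 1 was the highest library, and the median was 0.28 without it. Without the pair numbered 3 the median was 0.63, and 0.29 when only features that were not lncRNA intervals were fitted. SNORA64 (chr16:1962948-1963131) had 12, 5.92 and 9.69 CPM in GFP and 33.6, 13.9 and 14.5 CPM in LMNA. Its groups did not overlap, as the rule that named it required, and its log2 fold change was 1.17 ± 0.42. SNORA18, 1 of the 2 most abundant members with SNORA2C, had 34.5, 8.18 and 13.7 CPM in GFP and 57.9, 27 and 29.8 CPM in LMNA. GFP replicate 1 lay above 2 of the LMNA libraries, and the log2 fold change of 1.02 ± 0.50 had an unadjusted edgeR p of 0.0655. SNORA57 (chr11:62665397-62665595), chosen after its values were seen, had 0.438, 0.279 and 0.315 CPM in GFP and 2.07, 1.05 and 0.93 CPM in LMNA, a log2 fold change of 1.94 ± 0.54. The lncRNA interval lnc-UQCC3-1 (chr11:62665311-62665736) contains SNORA57 and had almost the same values. TERC, the telomerase RNA, carries an H/ACA domain; chosen after its values were seen, it had 0.378, 0.412 and 0.456 CPM in GFP and 0.597, 0.566 and 0.497 CPM in LMNA (log2 fold change 0.40 ± 0.16).

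Small Cajal body RNAs behaved alike in direction. Of 27 tested, 22 had a positive log2 fold change. At an unadjusted p under 0.05, 7 were higher (25.9%, against 2.83% of all tested) and 0 lower. The median was 0.17, or 0.43 without the pair numbered 3. It was 0.07 when only features that were not lncRNA intervals were fitted. SCARNA20 (chr17:60231491-60231671) had 1.26, 0.948 and 1.04 CPM in GFP and 5.11, 2.17 and 2.12 CPM in LMNA. Its groups did not overlap, as the rule that named it required. LMNA replicate 1 was the highest, and SCARNA20 had a log2 fold change of 1.52 ± 0.37. SCARNA14 had 4.15, 5.44 and 8.79 CPM in GFP and 9.98, 9.18 and 10.7 CPM in LMNA, a log2 fold change of 0.70 ± 0.24 that was called without the pair numbered 3 (1.06, adjusted p of 0.00599 by edgeR).

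C/D box snoRNAs, far more abundant in sum, leaned less and depended on the GFP libraries and on the scaling. Of 194 tested, 131 had a positive log2 fold change. At an unadjusted p under 0.05, 16 were higher (8.25%, against 2.83% of all tested) and 0 lower. The median was 0.14, with 0.37 without GFP replicate 1 and 0.01 without GFP replicate 2. It was 0.02 when only features that were not lncRNA intervals were fitted. Their class level was 0.46, −0.20 and −0.26 in GFP and 0.21, 0.14 and 0.21 in LMNA, so the LMNA libraries lay between the GFP libraries. The snoRNAs listed for ribosomal RNA processing, the 7 tested features of U3 (SNORD3), U8 (SNORD118) and U13 (SNORD13), formed a tighter group. All 7 had positive log2 fold changes, from 0.28 to 0.43, and 0 passed an unadjusted p under 0.05. In 5 of them (71.4%, against 4.16% of all tested) all LMNA libraries were above all GFP libraries. Copies of U3 can share reads, so the 7 are not 7 separate results. SNORD118 had 398, 437 and 355 CPM in GFP and 499, 507 and 523 CPM in LMNA, without overlap (log2 fold change 0.36 ± 0.22). SNORD17 had 5.45, 4.12 and 6.49 CPM in GFP and 16.5, 9.73 and 7.22 CPM in LMNA, a log2 fold change of 1.06 ± 0.34.

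The snoRNAs of GAS5, a non-coding host gene, did not share a direction. Of 10 tested, 3 had a positive log2 fold change. At an unadjusted p under 0.05, 1 was higher (10%, against 2.83% of all tested) and 0 lower. The median was −0.16, which turned to 0.41 without GFP replicate 1. SNORD44 (chr1:173865943-173866053), the most abundant of them, had 11586, 8594 and 4002 CPM in GFP and 5331, 6683 and 6422 CPM in LMNA. The LMNA libraries fell within the GFP range, and the log2 fold change was −0.39 ± 0.33, and −0.69 without the pair numbered 3 and −0.05 without GFP replicate 1. SNORD74 (chr1:173867649-173867770), from the same host gene and chosen after its values were seen, had 176, 169 and 277 CPM in GFP and 518, 301 and 290 CPM in LMNA. Its groups did not overlap, with a log2 fold change of 0.83 ± 0.28, and 1.30 without the pair numbered 3 (adjusted p of 0.00543 by edgeR). The difference between these snoRNAs of a single host gene was not tested. The 8 tested snoRNAs of SNHG1 had a median of −0.04, and 0.39 without GFP replicate 1.

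Nuclear transfer RNA genes, transcribed by Pol III, showed a modest lean that rested on which GFP library was used and on the scaling. Of 499 genes listed, 463 were tested and 303 had a positive log2 fold change. At an unadjusted p under 0.05, 62 were higher (13.4%) and 1 lower (0.216%), against 2.83% and 2.63% of all tested. The median was 0.14, but −0.03 without GFP replicate 2, 0.50 without GFP replicate 3 and 0.43 without the pair numbered 3. It was 0.03 when only features that were not lncRNA intervals were fitted. The class level was 0.02, −0.47 and 0.42 in GFP and 0.22, 0.08 and 0.37 in LMNA, so GFP replicate 2 was the lowest library, GFP replicate 3 the highest and the LMNA libraries lay between them. Copies of a tRNA gene with the same mature sequence can share reads, so single genes are uncertain and are not independent of each other.

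Isotypes differed in their values. Tyrosine tRNA genes had the highest median, 0.46 over 13 tested genes. At an unadjusted p under 0.05, 8 were higher (61.5%, against 13.4% of nuclear tRNA genes and 2.83% of all tested) and 0 lower. In 8 (61.5%, against 4.16% of all tested) all LMNA libraries were above all GFP libraries. The median stayed positive in all 16 alternative fits, from 0.32 to 0.66. Asparagine tRNA genes had a median of 0.40 over 27 genes. At an unadjusted p under 0.05, 12 were higher (44.4%, against 2.83% of all tested) and 0 lower. Cysteine tRNA genes had a median of 0.32 over 30 genes, with 4 higher and 0 lower. Those 4 are 13.3%, near the share of all nuclear tRNA genes. Alanine tRNA genes had a median of −0.18 over 43 genes, which became 0.68 without GFP replicate 3 and 0.29 without the pair numbered 3. Valine tRNA genes went from −0.01 over 34 genes to 1.18 without the pair. Their class level was −0.23, −1.29 and 1.5 in GFP and 0.76, 0.08 and 0.45 in LMNA, so the LMNA libraries lay inside a wide GFP range.

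Among single tRNA genes, the tyrosine tRNA gene tRNA-Tyr-GTA-4-1 (chr14:20657439-20657582), chosen after its values were seen, had 13.2, 11.6 and 16.6 CPM in GFP and 26.3, 20.2 and 22.5 CPM in LMNA. All LMNA libraries were above all GFP libraries, with a log2 fold change of 0.74 ± 0.21, and 0.97 without the pair numbered 3 (adjusted p of 0.0164 by edgeR). The threonine gene tRNA-Thr-CGT-5-1 (chr6:27618331-27618454) had 1.94, 0.955 and 1.23 CPM in GFP and 4.27, 2.66 and 3.06 CPM in LMNA, a log2 fold change of 1.27 ± 0.27. The valine gene tRNA-Val-AAC-6-1 had 19.6, 8.36 and 18.4 CPM in GFP and 34.1, 26.3 and 33.3 CPM in LMNA (1.02 ± 0.32). Neither gene's groups overlapped, which the rule that named both required. The most abundant tRNA feature, tRNA-Leu-TAG-1-1 (chr17:8120289-8120420), had 1127, 356 and 364 CPM in GFP and 1108, 1011 and 1018 CPM in LMNA. GFP replicate 1 was as high as the LMNA libraries while GFP replicates 2 and 3 were low, and the log2 fold change of 0.77 had an SE of 0.37. Without GFP replicate 1 it was 1.52 and called (adjusted p of 0.0107 by edgeR), and without GFP replicate 2 it was 0.50. The serine gene tRNA-Ser-TGA-1-1 had 70.9, 98.7 and 492 CPM in GFP and 137, 158 and 182 CPM in LMNA. Its log2 fold change was −0.47 ± 0.58 with all libraries and 0.86 without the pair numbered 3 (adjusted p of 0.0444 by edgeR), a change of sign.

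The other Pol III products varied. SNAR-A genes, of a primate-specific family of short non-coding RNAs on chromosome 19, had a median of 1.16 over 24 tested intervals. At an unadjusted p under 0.05, 22 were higher (91.7%, against 2.83% of all tested) and 0 lower. Only 2 of the 24 (8.33%, against 4.16% of all tested) had all LMNA libraries above all GFP libraries. The most abundant SNAR-A1 interval (chr19:47923754-47924027) had 79, 27.9 and 31.6 CPM in GFP and 119, 150 and 76.2 CPM in LMNA. GFP replicate 1 lay just above LMNA replicate 3, and the log2 fold change was 1.32 ± 0.44. The SNAR-A intervals are near-identical copies that can share reads, so the 22 are not 22 separate results. Of all 33 tested SNAR intervals, 24 had a positive log2 fold change. The 5 tested SNAR-C intervals, of the same family, were all negative, from −0.59 to −0.05. Their median was −0.28, and 0.125 without the pair numbered 3. The 17 tested 5S rRNA genes all had log2 fold changes between 0.41 and 0.49 and 0 of them passed an unadjusted p under 0.05. These genes too are near-identical copies that can share reads, so the 17 are not 17 separate results. Their median was 0.42, and 0.62 without the pair numbered 3 and 0.23 without GFP replicate 2. One of them, RNA5S8, had 478, 264 and 391 CPM in GFP and 617, 483 and 420 CPM in LMNA, with overlap.

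RN7SL1 encodes the 7SL RNA of the signal recognition particle. It had 15.4, 12.2 and 14 CPM in GFP and 23.6, 18.2 and 16.5 CPM in LMNA, without overlap (log2 fold change 0.48 ± 0.21). Its paralogue RN7SL2 had 11, 10 and 13.3 CPM in GFP and 18.1, 15 and 13.1 CPM in LMNA, where LMNA replicate 3 lay just below GFP replicate 3 (0.43 ± 0.20). RPPH1, the RNA of ribonuclease P, had 27.9, 23.8 and 21.9 CPM in GFP and 32.4, 28.3 and 28.8 CPM in LMNA. These groups did not overlap, but the interval of its log2 fold change ran from −0.14 to 0.70. RMRP, the related RNA of ribonuclease MRP, had 28.2, 27.8 and 50.7 CPM in GFP and 48.4, 38.6 and 36.1 CPM in LMNA, and GFP replicate 3 was the highest library of all. VTRNA2-1, a vault-related RNA, had a negative value, with 814, 830 and 562 CPM in GFP and 425, 538 and 715 CPM in LMNA (−0.40 ± 0.28, with overlap). The values of RN7SK, which encodes the 7SK RNA that restrains transcription elongation, were 111, 160 and 82.8 CPM in GFP and 98.2, 127 and 123 CPM in LMNA. They overlapped fully, with an interval of the log2 fold change from −0.55 to 0.50. Among Y RNAs, RNY1 had a log2 fold change of 0.33 ± 0.25, RNY3 of 0.03 ± 0.27 and RNY4 of 0.13 ± 0.23, all with overlap. Without the pair numbered 3, RNY1 was at 0.63, RNY3 at −0.22 and VTRNA2-1 at −0.71. The 9 tested U6 genes had a median of 0.15, which was −0.04 without GFP replicate 2, 0.52 without GFP replicate 1 and −0.00 without the pair.

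**Figure D4:**
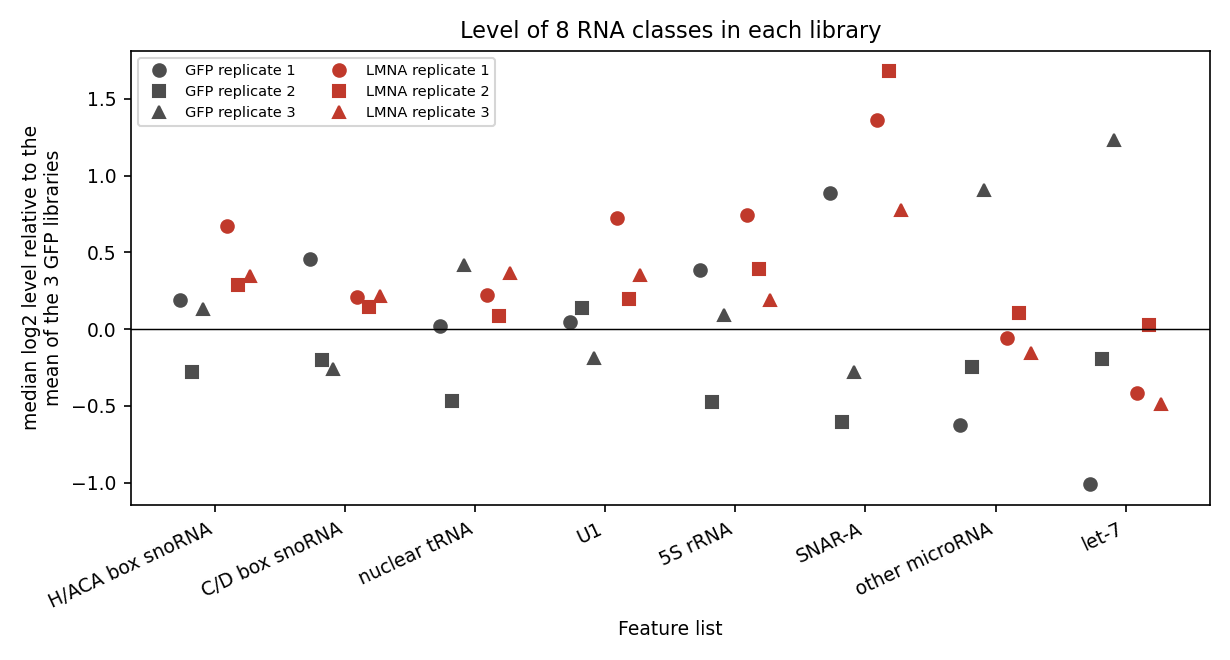
The level of 8 RNA classes in each library: the median of the members' log2 level relative to the mean of the GFP libraries (y axis), for 3 GFP (grey) and 3 LMNA (red) libraries with symbols by replicate number. H/ACA box snoRNA and U1 have no overlap between the groups; microRNA, let-7 and tRNA are highest in GFP replicate 3.

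The following spliceosomal and ribosomal RNA genes, transcribed by other polymerases except for RNU6ATAC, gave small values. Their medians were positive except for the 5 U5 genes (−0.04, and 0.25 without GFP replicate 1). All 6 tested U1 genes, against 4.16% of all tested features, had all LMNA libraries above all GFP libraries. Their log2 fold changes ran from 0.41 to 0.47, with 0 at an unadjusted p under 0.05. RNU1-1 had 123, 131 and 107 CPM in GFP and 204, 137 and 154 CPM in LMNA (0.45 ± 0.22). The 12 U2 genes had a median of 0.25 with overlap. The 4 genes of the minor spliceosome, the Pol III gene RNU6ATAC among them, had a median of 0.17. The 15 features of the ribosomal RNA repeat transcribed by RNA polymerase I had a median of 0.16. The precursor RNA45SN2 had 13258, 14325 and 13915 CPM in GFP and 16297, 15469 and 15498 CPM in LMNA, without overlap, and the interval of its log2 fold change ran from −0.35 to 0.72. MIR3687-1, a microRNA gene on chromosome 21 chosen after its values were seen, went the other way with overlap, at 37.7, 37.4 and 20.9 CPM in GFP and 21.2, 20 and 28.4 CPM in LMNA (−0.46 ± 0.25). Without the pair numbered 3 its log2 fold change was −0.80 and it was called (adjusted p of 0.0455 by edgeR). Copies of U1, U2 and the ribosomal repeat share reads. Fitting only the 3320 features that were not lncRNA intervals lowered log2 fold changes by a median of 0.11 over the 3303 features in both fits, and under that scaling the medians were 0.27 for U1, 0.10 for U2 and 0.01 for the ribosomal repeat.

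The direction of microRNA features depended on GFP replicate 3. Of 383 tested features outside the listed families, 107 had a positive log2 fold change and the median was −0.22. At an unadjusted p under 0.05, 7 were higher (1.83%) and 9 lower (2.35%), against 2.83% and 2.63% of all tested. Without the pair numbered 3 the median was 0.47. The class level was −0.62, −0.25 and 0.91 in GFP and −0.06, 0.11 and −0.15 in LMNA, so the LMNA libraries lay inside the GFP range. MIR10A, chosen after its values were seen, had 33.2, 60.2 and 218 CPM in GFP and 65.8, 97.1 and 54.8 CPM in LMNA. GFP replicate 3 was the highest library and GFP replicate 1 was the lowest of all; the log2 fold change was −0.51 ± 0.54, and 0.87 without the pair.

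The 23 tested let-7 features had a median of −0.73 and 0.43 without the pair numbered 3. MIRLET7A1, a source of let-7a, had 2.89, 5.73 and 17.2 CPM in GFP and 4.62, 7.77 and 4.22 CPM in LMNA. Its log2 fold change was −0.64 ± 0.52, and 0.59 without the pair. The MIR25 and MIR92A1 genes, whose 3' products share a seed, gave log2 fold changes of −0.42 ± 0.43 and −0.30 ± 0.32, and both signs turned without the pair, to 0.66 and 0.29. MIR25 had 8.66, 12.6 and 37 CPM in GFP and 12.5, 19.7 and 11.4 CPM in LMNA. MIR25 was highest in GFP replicate 3. The MIR125 genes were chosen after their values were seen. MIR125A, whose tested interval holds only a part of miR-125a-5p, had 8.13, 11.1 and 28.9 CPM in GFP and 17.3, 19.7 and 15.2 CPM in LMNA. Its log2 fold change was 0.12 ± 0.34 with all libraries and 1.01 without the pair (adjusted p of 0.0114 by edgeR). MIR125B1 went from 0.01 ± 0.60 to 1.32 (adjusted p of 0.00543 by edgeR). MIR93 and MIR191, also chosen after their values were seen, went from −0.30 to 1.07 and from −0.14 to 0.95. MIR9-1 had a log2 fold change of −1.17 ± 0.59, and 0.21 without the pair. MicroRNA features held a small share of the counts, 0.0821%, 0.138% and 0.361% of counts in GFP and 0.147%, 0.174% and 0.129% in LMNA.

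Intervals of long non-coding RNA made up 30564 of the tested features, and their median was −0.06. Intervals of at least 1 CPM were divided by whether a small RNA gene lies in or across them. Of 1609 intervals at 338 loci that overlapped a snoRNA, tRNA, snRNA, rRNA or Y RNA feature, 1022 had a positive log2 fold change. Their median was 0.08. At an unadjusted p under 0.05, 187 were higher (11.6%) and 6 lower (0.373%), against 2.83% and 2.63% of all tested. Of 1093 intervals at 242 loci without such a feature, 321 had a positive log2 fold change, 28 were higher (2.56%) and 12 lower (1.10%), and the median was −0.13. Without the pair numbered 3 the medians were 0.29 and 0.23. The difference between the kinds was not tested. Because counts at overlapping features can come from the same reads, a value at the first kind of interval cannot be assigned to the long RNA. The same holds for any interval of the second kind that overlaps a small RNA left out of the split.

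Host genes of the SNHG family, all snoRNA hosts, had a median of 0.11 over 292 tested intervals. It was 0.28 without GFP replicate 1 and 0.02 without GFP replicate 2. At an unadjusted p under 0.05, 46 were higher (15.8%, against 2.83% of all tested) and 0 lower. The SNHG17 locus, with features of several names, held 63 tested features, 49 of them higher at that threshold. How many of the 46 are SNHG17 intervals was not counted, so they cannot be read as separate host genes. The GAS5 interval with the highest mean CPM, chosen after its values were seen, had 16648, 10836 and 5678 CPM in GFP. It had 7911, 9613 and 9561 CPM in LMNA, inside the GFP range. The 10 tested GAS5 snoRNAs sum to 16648, 10836 and 5678 CPM in GFP and 7911, 9612 and 9560 CPM in LMNA. The interval is therefore no separate measure of the host RNA. Promoter-divergent lncRNAs had a median of −0.22 over 222 intervals that stayed negative in all 15 alternative fits, with 4 higher (1.8%, against 2.83% of all tested) and 0 lower at an unadjusted p under 0.05. Groups did not overlap in 13 higher (5.86%) and 12 lower (5.41%) intervals, against 4.16% and 5.34% of all tested. Many of these intervals overlap each other. An interval of EPCAM-DT had 14.2, 7.78 and 50.8 CPM in GFP and 30.2, 17.7 and 21.4 CPM in LMNA. Its log2 fold change was −0.07 ± 0.60, and 1.18 without the pair numbered 3. The 69 intervals of MALAT1 and NEAT1, abundant nuclear RNAs, had a median of −0.08. NEAT1, the scaffold of paraspeckles, had 13.5, 13.2 and 11.6 CPM in GFP and 12, 12.5 and 11.7 CPM in LMNA. The groups overlapped and the interval of the log2 fold change ran from −0.47 to 0.31.

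Among single lncRNA intervals, AC004551.2 (chr12:112907603-113017776) had 0.137, 0.132 and 0.13 CPM in GFP and 0.324, 0.373 and 0.292 CPM in LMNA. Its groups did not overlap and lay far apart for their spread, with a log2 fold change of 1.23 ± 0.20, the lowest adjusted p of the comparison (0.326 by edgeR) and 0.0109 without the pair numbered 3. The interval lnc-LPP-6 (chr3:189127033-189151161) had 0.515, 0.301 and 0.456 CPM in GFP and 1.81, 1.17 and 1.04 CPM in LMNA (1.63 ± 0.36). On the lower side, lnc-OPRM1-8 had 0.395, 0.169 and 0.158 CPM in GFP and 0.056, 0.0345 and 0.105 CPM in LMNA (−1.63 ± 0.48). PCA3, a lncRNA used as a prostate cancer marker, had 0.223, 0.176 and 0.282 CPM in GFP and 0.0996, 0.0967 and 0.158 CPM in LMNA (−0.88 ± 0.29). DENND5B-AS1 had 0.172, 0.22 and 0.31 CPM in GFP and 0.131, 0.104 and 0.146 CPM in LMNA (−0.84 ± 0.27). The intervals in this paragraph were named by a rule that required groups without overlap, so that trait was fixed by the choice. The rule also asked for a mean CPM of at least 0.132, the median of all tested features. Apart from lnc-LPP-6 they lay not far above it, so their values rest on low counts.

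By chromosome, chromosome 20 had the largest share of features higher in LMNA at an unadjusted p under 0.05, 59 of 715 (8.25%). Another 21 were lower (2.94%), against 2.83% higher and 2.63% lower over all tested, and the median was 0.07. That median was −0.01 without GFP replicate 1, 0.20 without GFP replicate 3, 0.19 without the pair numbered 3 and −0.16 without lncRNA features. The SNHG17 locus alone gave 49 of those 59. Chromosome 14 followed with 57 of 919 (6.20%), and chromosome 18 had 1 of 581 higher (0.172%) and 23 lower (3.96%). Features on the mitochondrial chromosome had a median of 0.01 over 46, and the 24 named mitochondrial genes one of −0.09. The mitochondrial aspartate tRNA gene MT-TD had 5.90, 4.50 and 6.44 CPM in GFP and 4.26, 3.08 and 4.15 CPM in LMNA (−0.55 ± 0.20). Its groups did not overlap, as the rule that named it required, and it was the 1 mitochondrial feature at an unadjusted p under 0.05. The mitochondrial ribosomal RNA MT-RNR2 had 1414, 1186 and 773 CPM in GFP and 1182, 1166 and 1199 CPM in LMNA, with overlap.

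Without GFP replicate 3 and LMNA replicate 3, edgeR called 287 features higher in LMNA (0.81%) and 18 lower (0.0508%), out of 35452 tested, with 2 libraries per group. These 305 features lie at 140 separate loci and include 182 lncRNA intervals, 40 microRNA features, 29 nuclear tRNA genes, 9 H/ACA and 7 C/D box snoRNAs. The largest locus, on chr11 from 122028179 to 122116348, held 46 of them, overlapping intervals of MIR100HG, the host gene of a microRNA cluster, around MIR125B1. Leaving out GFP replicate 3 alone gave 304 calls (0.842% of 36091), 280 higher and 24 lower, of which 217 were shared with the 305. Of the 305, 8 were among DESeq2's 70. Leaving out GFP replicate 1 gave 10 calls, all higher (0.0267% of 37468), and testing 150622 features without a count filter gave 101 higher (0.0671%) and 10 lower (0.00664%), of which 20 were SNAR intervals. The tRNA gene tRNA-Leu-CAA-4-1 had 90.1, 107 and 167 CPM in GFP and 189, 193 and 161 CPM in LMNA; its log2 fold change was 0.58 ± 0.25 with all libraries and 1.02 without the pair (adjusted p of 0.0102). On the lower side, SNORD19C, chosen after its values were seen, had 358, 286 and 133 CPM in GFP and 160, 168 and 188 CPM in LMNA, where GFP replicate 3 was the lowest library; its log2 fold change went from −0.59 ± 0.29 to −0.91 (adjusted p of 0.022, both by edgeR). In both features GFP replicate 3 lay nearer to the LMNA libraries than to the other GFP libraries, or beyond them.

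**Figure D5:**
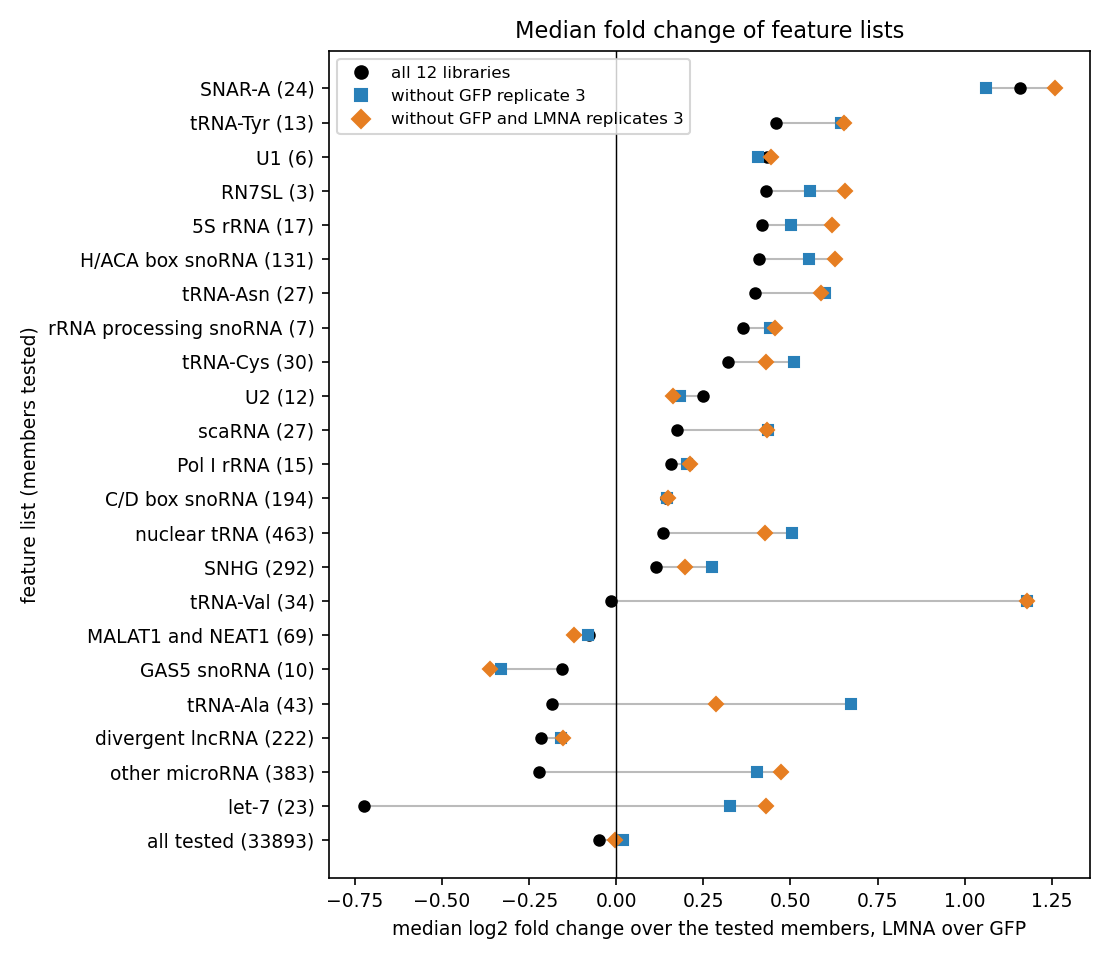
Median log2 fold change of LMNA over GFP for 22 feature lists and all tested features, with the number of tested members in parentheses, in the fit of all libraries (black), without GFP replicate 3 (blue) and without both libraries numbered 3 (orange). H/ACA box snoRNA, U1, 5S rRNA, 7SL and tyrosine tRNA are positive in all 3 fits; alanine and valine tRNA, microRNA and let-7 cross zero.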

How the data were processed

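Small RNA was sequenced from HEK293 cells overexpressing eGFP, LMNA, LMNB1 or LMNB2, 3 libraries each, 12 in all. The authors deposited whole-number counts per annotated feature, with no normalization, and a second table of ATAC-seq counts per window, per the values and file headers. The build is GRCh38, per the submitters' processing notes; how reads were aligned and counted, whether strand was used and what was done with reads mapping to several places are not given in the sources used here. All these choices affect near-identical and overlapping features. Features are often listed many times as overlapping intervals, so counts of features are not counts of genes, and loci were counted by merging intervals that overlap.

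Groups came from the titles. All 12 small RNA libraries were fitted in edgeR 4.0.16 (R 4.3.3) after filterByExpr and TMM scaling (33893 of 175946 features), with robust quasi-likelihood dispersions, a prior count of 2 and Benjamini-Hochberg adjustment over all tested features; calls have an adjusted p under 0.05. The pipeline was tested on simulated data. CPM are TMM-scaled. DESeq2 1.42.0 and other alternatives are in the closing section. Members and lists were chosen with earlier results of these data known. Named features were those over LMNA, a set of Pol III genes, the 2 most abundant of each list, and those with the largest fold change among features with an unadjusted p under 0.05 and no overlap (up to 8 each way over all features, 3 each way per biotype, with minimum levels); others are marked in the text. Intervals of a log2 fold change are 95% confidence intervals. Lists were described by counts and medians, with no set test. Replicate pairs in each group differed by more than counting noise (chi-square per degree of freedom of 63.14 to 906), so each library was kept.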

Additional observations from a re-analysis of the deposited data

Results flagged for a closer look

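A signal over the overexpressed gene appeared in the ATAC-seq counts, which the small RNA comparison does not use. The window named lnc-SEMA4A-1, which overlaps LMNA, had 13.2, 11.3 and 8.87 CPM in the GFP ATAC libraries and 4350, 5332 and 3743 CPM in the LMNA ATAC libraries, a mean of 4475 ± 802 (SD, n = 3) against 11.1 ± 2.16. The small RNA counts of the same interval were 2 to 5 reads in every one of the 6 libraries, and it was not tested.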

How the results depend on the processing

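The count of 0 called features was the same with DESeq2's size factors in edgeR, total counts only, a mean of at least 10 counts, no lncRNA features, only the 6 libraries compared, quasi-likelihood without robust estimation and an adjusted p under 0.1. It was 111 with no count filter (101 higher, 10 lower), 70 by DESeq2's Wald test, 305 without both libraries numbered 3, and between 0 and 304 when single libraries were left out; calls appeared without GFP replicate 3 (304) and GFP replicate 1 (10). With the replicate number as a block 0 features were called and 1895 had an unadjusted p under 0.05; deviations of same-numbered libraries correlated at 0.0549, 0.211 and 0.234, each the best match of its number, a hint of pairing from the data; the first is under 0.1 and the labels name no shared source, so the main analysis kept no block. Features whose groups did not overlap, 3221 in all, came to 1380 with total counts, 9950 with no filter and 262 without lncRNA features, where fewer features were tested; the cause of the change with total counts was not tested. Of these, the higher ones were 837 of 1380 with total counts, against 1411 of 3221. Signs turned and reached a call without GFP replicate 3 or without the pair: for tRNA-Ser-TGA-1-1, values ranged from −0.92 to 0.98 with single libraries left out (0.86 without the pair), for MIR93 from −0.72 to 0.93 (1.07), and for MIR191 from −0.55 to 0.85 (0.95). Of 71 list medians 31 kept one sign in every alternative run.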

Other observations

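Chromatin accessibility at the same intervals was measured by ATAC-seq in other libraries of the same conditions, and is given as a description. The median log2 difference between the LMNA and GFP libraries was 0.04 over 455 windows on nuclear tRNA genes, 0.01 over 103 on H/ACA box snoRNA genes and 0.08 over 24 on SNAR-A genes, beside −0.00 over 33312 windows on tested features. For nuclear tRNA genes the levels relative to the GFP mean were 0.06, 0.04 and −0.11 in the GFP libraries and 0.06, 0.11 and −0.06 in the LMNA libraries, so the groups overlapped. Windows on the 24 named mitochondrial genes were −0.32, 0.20 and 0.12 in GFP and −0.33, −0.02 and −0.39 in LMNA, also with overlap.

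Of the features that set the libraries numbered 3 apart, tRNA-Ala-CGC-1-2 (chr6:28673811-28673932) had 7.49, 4.66 and 47.5 CPM in GFP and 7.29, 6.14 and 39.1 CPM in LMNA, against 4.65 to 7.34 CPM in the LMNB1 and LMNB2 libraries. A lysine gene, tRNA-Lys-TTT-5-1, had 4.29, 2.18 and 21.7 CPM in GFP and 6.44, 6.48 and 25.1 CPM in LMNA. In the other direction, tRNA-Val-CAC-7-1 had 14.7, 8.32 and 2.75 CPM in GFP and 51, 23.4 and 1.13 CPM in LMNA. These tRNA genes, other than the alanine gene, were chosen after their values were seen.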
